A study of Triticum aestivum with 6 samples.

Results

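Wheat chromosome 3B was represented in the deposited count table by 8443 identifiers that begin with TRAES3B, of 102602 identifiers in all. They were chosen by the start of the name alone, without use of any measured value. The 9055 identifiers that begin with Traes_3AS_, Traes_3AL_, Traes_3DS_ or Traes_3DL_ served as the reference, and they name the short and long arms of chromosomes 3A and 3D. A further 995 identifiers that begin with Traes_3B_ were outside the rule. The reference gene table matched 0 of the TRAES3B identifiers, so no gene name, function or position can be given for them, and the chromosome is taken from the name.

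Bread wheat, Triticum aestivum, is a hexaploid with the subgenomes A, B and D, and most of its genes have related copies, called homoeologues, on the chromosomes of each subgenome. Chromosome 3B is the largest of the genome and was the first to be assembled as a reference sequence of its own, while the other chromosomes were surveyed from sorted chromosome arms. Gene models of 3B were accordingly made apart from those of the chromosome arms. No label states whether the TRAES3B and Traes_ identifiers come from those sets. In the filling grain, the starchy endosperm takes up most of the tissue, and its few storage and starch genes contribute a large part of the RNA.

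RNA was sequenced from inferior grains, which set later in a spike and usually fill less, of field-grown plants of the cultivar Xinong 538. Sample titles gave the groups CK and SPD, with 3 libraries each and neither abbreviation spelled out. All 6 libraries carried the same treatment entry, exogenous spermidine, a polyamine, and the same stage entry of days 8 and 16 post anthesis. Treatment and stage therefore could not be assigned to a group from these entries, and no label ties the libraries to separate plants or plots. The series concerns the part that spermidine plays in grain filling, and SPD against CK is the 1 contrast the titles allow.

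Library totals ran from 10561224 to 13088727 counts. All 7 endosperm markers looked up (the puroindolines PINA and PINB, WAXY, AVNLA, GLU-D1-2B, AGP-L and AGP-S) had counts in every library, and their sum ran from 15030 to 15759 CPM, counts per 1000000 counts of the library, in CK and from 14003 to 18046 CPM in SPD. The 6 markers of green tissue such as the pericarp (PORA, PSBO, PSBP, PSBR, PETC and WHAB1.6) summed to 429 to 552 CPM in CK and 438 to 877 CPM in SPD. SPD replicate 3 held the highest sum of both lists and stood apart from the other libraries. On the first principal component of the tested TRAES3B identifiers, with 43.3% of the variance, it lay at 34.9 and the other 5 libraries between -10.2 and -4.76. The same was seen over all tested identifiers, where the first component held 35.4% of the variance. There SPD replicate 3 lay at 139.8 and the other 5 libraries between -42.6 and -20.7. In such bulk samples, fewer cells of a type and less RNA per cell cannot be told apart.

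Fewer than 1 in 3 of the TRAES3B identifiers were detected in the grain, against more than 1 in 2 of those of 3A and 3D. At least 1 CPM in at least 3 of the 6 libraries, the rule for detection, was met by 2529 of 8443 TRAES3B identifiers, or 30.0%. The same rule was met by 927 of 1843 on 3AS (50.3%), 1496 of 2726 on 3AL (54.9%), 902 of 1898 on 3DS (47.5%) and 1397 of 2588 on 3DL (54.0%). Over the whole table it was met by 46.8%. The 995 Traes_3B_ identifiers lay lower still, at 24.9%.

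Within single libraries, the share of TRAES3B identifiers at 1 CPM or more was 29.1%, 29.6% and 29.1% for the CK libraries in the order of their replicate numbers. For the SPD libraries it was 29.3%, 29.5% and 30.1%. The values of the groups overlapped, and the highest belonged to SPD replicate 3. The means were 29.3% ± 0.26 in CK and 29.6% ± 0.41 in SPD (SD, n = 3) (two-sided exact permutation p = 0.3). The smallest p possible for 3 libraries against 3 is 0.1. The pooled 3A and 3D identifiers ran from 50.2% to 51.8%. The difference, TRAES3B minus 3A and 3D within each library, was -21.6 percentage points ± 0.50 (SD, n = 6) and ran from -22.1 to -20.7. The two-sided exact sign-flip permutation test over the 6 libraries gave p = 0.03125, the smallest it can give with 6. It covers the spread between libraries and not which entries an annotation holds.

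**Figure D1:**
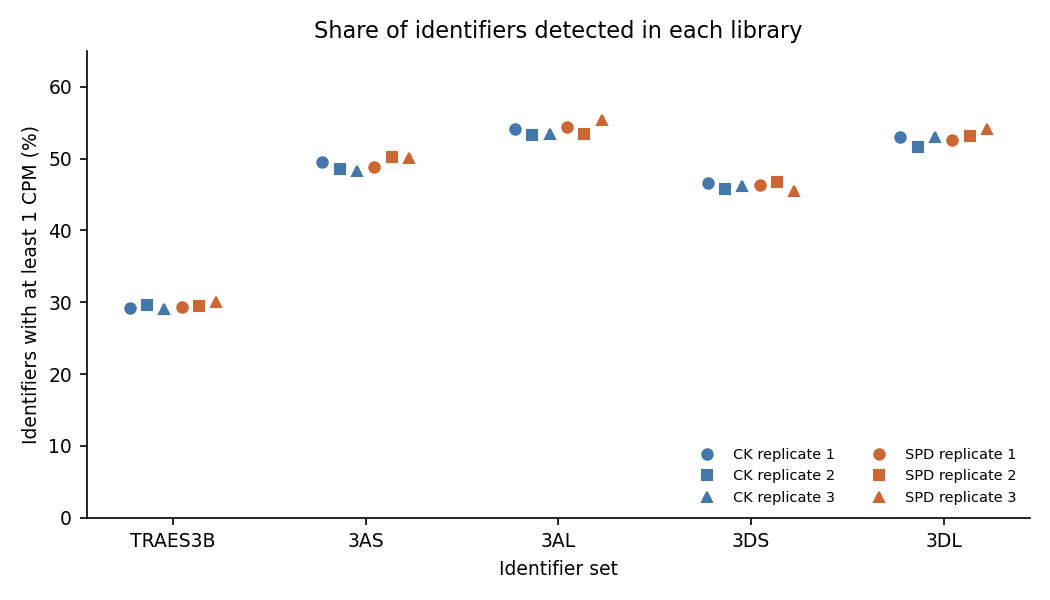
Share of identifiers with at least 1 CPM (percent, vertical axis) in each of the 6 libraries, for TRAES3B and the 4 reference arms (horizontal axis). Each point is 1 library, with CK in blue and SPD in orange. TRAES3B lay between 29.1% and 30.1%, below every library of every reference arm.

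The gap came with identifiers that had no counts at all. No library held a count for 3997 TRAES3B identifiers, or 47.3%, against 2057 of the 3A and 3D identifiers, or 22.7%, and 28.9% of the whole table. A count of 0 allows a level of up to 0.229 to 0.284 CPM, depending on the library (3 counts of its total). These limits cover counting error only. Among identifiers with any count, 56.9% of those of TRAES3B and 67.5% of those of 3A and 3D were detected. Detection was much the same from library to library. Of the TRAES3B identifiers that reached 1 CPM in any library, 2074, or 70.0%, did so in all 6, and 890 did so in 1 to 5. On 3A and 3D the share in all 6 was 70.4%.

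Part of the absence followed the letters that end an identifier. All TRAES3B identifiers end in g, TG, NCG, RG or ncg, and the sources used here do not say what these endings stand for. The 7685 that end in g took 99.98% of the TRAES3B counts. The 534 that end in TG had any count in 4 cases, and the 85 that end in RG in 13. None of the 37 that end in ncg had a count. Of the 102 that end in NCG, 32 had counts and 3 were detected, and the highest, TRAES3BF116200070CFD_NCG, had a mean of 1.24 CPM. Among the identifiers that end in g, 42.8% had no count and 32.9% were detected. Their share at 1 CPM within a library was 32.3% ± 0.39 (SD, n = 6), 18.8 points ± 0.52 below 3A and 3D. The two-sided exact sign-flip permutation p was again 0.03125, the smallest possible with 6 libraries. Like the first, this p does not cover which entries an annotation holds. Leaving out the other endings thus moved the difference from -21.6 to -18.8 points.

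Identifiers that were detected had levels close to those of 3A and 3D. The mean CPM of detected TRAES3B identifiers had a median of 6.55, and its middle 50% ran from 2.66 to 17.4. The medians were 6.43 on 3AS, 6.29 on 3AL, 4.72 on 3DS and 6.10 on 3DL, and 6.64 over the whole table. The highest 10% of detected TRAES3B identifiers began at 39.4 CPM, against 32.5 on 3A and 3D together and 39.5 in the whole table. CPM are not divided by transcript length, since no lengths of these identifiers were used, so comparisons between identifiers are of counts and not of transcripts. Within single libraries the median of identifiers at 1 CPM or more was 6.78 ± 0.091 in CK and 6.50 ± 0.27 in SPD (SD, n = 3). The two-sided exact permutation p was 0.2, and the lowest median, 6.25, was that of SPD replicate 3.

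By level, 1580 TRAES3B identifiers had a mean of 1 to under 10 CPM, 896 of 10 to under 100, 50 of 100 to under 1000 and 2 of 1000 or more. The 896 identifiers of the class from 10 to under 100 CPM took 58.6% of the TRAES3B counts, the 50 of the next class 19.1% and the 2 highest 6.96%. Up to the class of 100 to under 1000 CPM, the spread between the 6 libraries was narrower at higher levels. The median coefficient of variation was 86.0% from 0.1 to under 1 CPM, 30.3% from 1 to under 10, 14.5% from 10 to under 100 and 8.74% from 100 to under 1000, and it was 10.6% for the 2 identifiers of 1000 or more. The values of the first 4 of these classes on 3A and 3D were 85.5%, 31.3%, 15.1% and 10.2%.

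**Figure D2:**
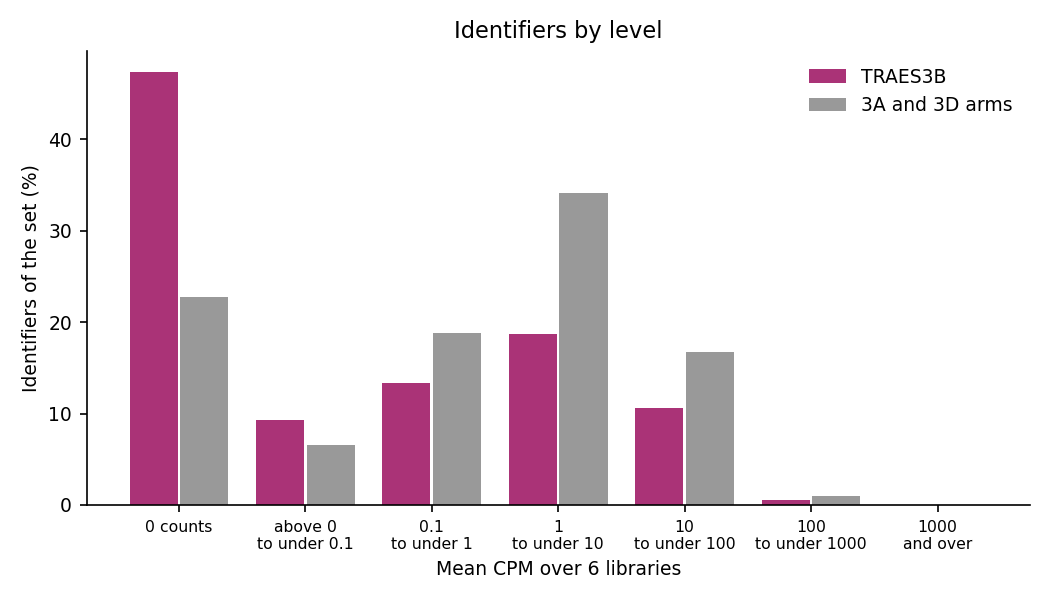
Share of identifiers (percent of the set, vertical axis) by class of mean CPM over the 6 libraries (horizontal axis), for TRAES3B and for the 3A and 3D arms together. The class without counts held 47.3% of TRAES3B and 22.7% of 3A and 3D, and the class from 1 to under 10 CPM held 18.7% and 34.1%.

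Together, the TRAES3B identifiers took 4.51%, 4.64% and 4.396% of all counts in the CK libraries, in the order of their numbers. In the SPD libraries they took 4.39%, 4.48% and 4.35%. The 95% Wilson interval of each share reached at most 0.0124 points to either side, for counting error only. The highest share was that of CK replicate 2 and the lowest that of SPD replicate 3, and the groups overlapped. Means were 4.51% ± 0.12 in CK and 4.405% ± 0.068 in SPD, a difference of -0.11 points (two-sided exact permutation p = 0.2). Without CK replicate 2 the difference was -0.046 points. Per identifier, the mean level was 5.28 CPM on TRAES3B and 8.78 CPM on 3A and 3D, absent ones included.

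Detection was uneven along the numbering of the identifiers. After TRAES3B and the letter F, each name holds 4 leading and 5 trailing digits. Names with the same leading digits were treated as a block, and their trailing digits rise in steps of 10. No source used here says what the digits stand for, so blocks are not called positions. Among the identifiers ending in g there were 1236 blocks and 6434 pairs of neighbouring numbers within a block. Where the first of a pair was detected, the next was detected in 1009 of 2077 cases, or 48.6%. Where it was not, the next was detected in 1067 of 4357 cases, or 24.5%. For the log2 mean CPM of neighbours that were both detected, Pearson's r was 0.09 and Spearman's rho 0.081 across 1009 pairs, which come from the same 6 libraries and are not independent.

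Large blocks showed this range most plainly. In the 127 blocks of at least 15 identifiers the share detected ran from 0% to 81.3%, with a median of 26.3% and a middle 50% from 16.1% to 41.9%. In 3 of these blocks no identifier was detected. The block with the leading digits 1132 held 23 identifiers, of which 21 had no count in any library. In the block 0667, 13 of 16 were detected, and in the block 0032, 12 of 15. By the size of the block, 31.4% of identifiers were detected in blocks of 1 and 38.2% in blocks of 2 to 5. The share was 35.0% in blocks of 6 to 10, 34.2% in blocks of 11 to 20 and 23.6% in blocks of 21 and over. These shares are descriptions, with no test.

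The 10 identifiers with the most counts took 13.05% ± 0.21 of the TRAES3B counts in CK and 13.3% ± 1.25 in SPD (SD, n = 3) (two-sided exact permutation p = 1). SPD replicate 3 had the highest share, 14.8%, and the other libraries 12.6% to 13.2%. On single reference arms, which hold only 1843 to 2726 identifiers, the share of the 10 highest was between 10.8% on 3DL and 53.6% on 3DS. On 3DS 1 identifier alone had a mean of 9090 CPM. For the 9055 identifiers of 3A and 3D together, that one included, the share was 17.2% over the 6 libraries, beside 13.2% on TRAES3B. The highest mean on TRAES3B was 2004 CPM.

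The identifier with the most counts was TRAES3BF068600010CFD_g. In CK replicates 1, 2 and 3 it had 2013, 2072 and 2056 CPM, and in SPD replicates 1, 2 and 3 it had 1722, 1949 and 2214 CPM. It ranked 24 among all identifiers of the table. The lowest and the highest value both belonged to SPD libraries, so the groups overlapped. TRAES3BF068600020CFD_g, the next in number, was also the next in counts, with 1073, 1161 and 1106 CPM in the CK libraries, against 966, 999 and 1371 CPM in SPD. Both were lowest in SPD replicate 1 and highest in SPD replicate 3. The ratio of the first to the second lay between 1.78 and 1.95 in 5 libraries and was 1.61 in SPD replicate 3. Both together took 6.13% to 7.19% of the TRAES3B counts in those 5 libraries and 8.24% in SPD replicate 3. In the quasi-likelihood test of edgeR their log2 fold changes, SPD over CK, were -0.051 (SE 0.11) and 0.01 (SE 0.14), each with an adjusted p of at least 0.998. Without SPD replicate 3 the latter lay at -0.19.

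The next identifiers had lower levels and differed in how steady they were. TRAES3BF023000050CFD_g had 674, 692 and 710 CPM in the CK libraries, against 705, 717 and 650 CPM in SPD, the smallest coefficient of variation of the 10 (3.69%). TRAES3BF044000030CFD_g had 454, 513 and 442 CPM in the CK libraries, against 513, 464 and 467 CPM in SPD. Neither separated the groups. TRAES3BF079100070CFD_g had 342, 349 and 360 CPM in the CK libraries, against 378, 370 and 433 CPM in SPD. All its SPD values lay above all its CK values, with a log2 fold change of 0.18 (SE 0.11) and an adjusted p of 0.998 in edgeR. TRAES3BF004400040CFD_g, with 241, 289 and 242 CPM in the CK libraries, against 296, 242 and 396 CPM in SPD, was the least steady of the 10 (21.2%), and its highest value was that of SPD replicate 3.

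TRAES3BF091100230CFD_g had 283, 277 and 293 CPM in the CK libraries, against 275, 272 and 238 CPM in SPD. All its SPD values lay below those of CK, at a log2 fold change of -0.11 (SE 0.10) and an adjusted p of 0.998 in edgeR. TRAES3BF072800050CFD_g had 305, 266 and 252 CPM in the CK libraries, against 264, 251 and 200 CPM in SPD, with the lowest value again in SPD replicate 3. TRAES3BF092100100CFD_g had 196, 246 and 163 CPM in the CK libraries, against 199, 208 and 247 CPM in SPD. TRAES3BF151800050CFD_g had 202, 197 and 201 CPM in the CK libraries, against 218, 184 and 214 CPM in SPD. Both overlapped between the groups. Identifiers 11 to 20 by counts had means of 164 to 198 CPM and coefficients of variation of 2.66% to 11.6%. Over all 20, log2 fold changes ran from -0.20 to 0.29, with 12 positive and 8 negative. None had an unadjusted edgeR p below 0.05, beside 3.59% of all tested identifiers. On CPM scaled by library size alone, the groups were fully separated in 2 of the 20. The share over all tested identifiers was 9.49%, judged on TMM-scaled CPM.

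**Figure D3:**
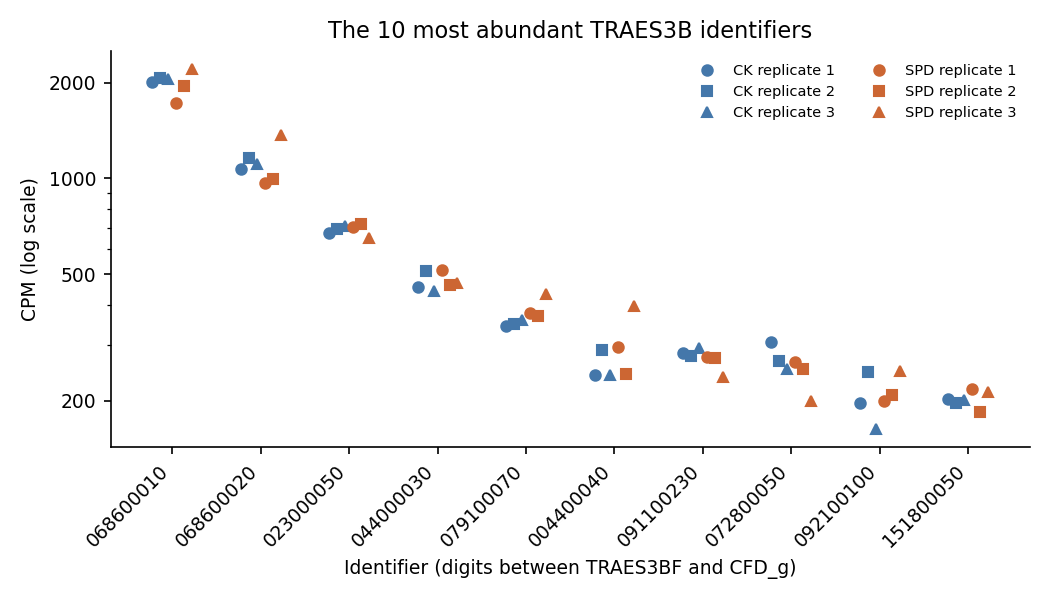
Levels (CPM, log scale, vertical axis) of the 10 TRAES3B identifiers with the most counts (horizontal axis, by their digits). Each point is 1 library, with CK in blue and SPD in orange. The CK and SPD points overlapped in 8 of the 10, and the first identifier spanned 1722 to 2214 CPM. Over all tested identifiers, the groups were fully separated in 9.49%, judged on TMM-scaled CPM and not on the CPM shown.

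No TRAES3B identifier differed between SPD and CK after adjustment for all tests. Of the 8443, 2660 passed the filter on low counts and were tested in a fit of all 50136 tested identifiers. The quasi-likelihood test of edgeR called 0 of them at an adjusted p of 0.05, against 0% of all those tested, and the smallest adjusted p was 0.998. The Wald test of DESeq2 called 0 of them and 0.00598% of all tested, and limma-voom called 0 and 0%. Without adjustment, 62 TRAES3B identifiers had an edgeR p below 0.05, or 2.33%, beside 3.59% of all tested. Of these, 26 were higher in SPD (0.977%, beside 1.88% of all) and 36 lower (1.35%, beside 1.71% of all). The DESeq2 and limma-voom tests gave 53 and 63, or 1.99% and 2.37%, beside 3.09% and 3.56% of all.

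The count below an unadjusted 0.05 depended on 2 libraries. It was 188, or 6.81%, without SPD replicate 2, where the share of all tested was 7.76%. Without SPD replicate 3 it was 120, or 4.33%, beside 4.84% of all tested. No TRAES3B identifier was called in either fit.

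Fitted changes centred near 0. The median log2 fold change of the 2660 was -0.0085, beside 0.0034 for all tested, and 1282, or 48.2%, were positive. The central 90% ran from -0.59 to 0.67 on TRAES3B and from -0.61 to 0.70 over all tested. In the 948 with a mean of at least 10 CPM it ran from -0.37 to 0.28, and the median SE there was 0.18. A log2 fold change of at least 1 was fitted for 47 (1.77%, beside 2.01% of all) and one of -1 or below for 28 (1.05%, beside 1.32% of all). The groups were fully separated, with every SPD value on one side of every CK value, in 242 TRAES3B identifiers, or 9.10%, beside 9.49% of all tested. In 106 of them SPD was above (3.98%, beside 4.7% of all) and in 136 below (5.11%, beside 4.79% of all). Every SPD library held 0 counts and every CK library at least 1 for 11 TRAES3B identifiers, or 0.130%, beside 0.147% of the whole table, with at most 12 counts in a library. The reverse was found for 8, or 0.0948%, beside 0.111% of the whole table, with at most 13 counts.

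**Figure D4:**
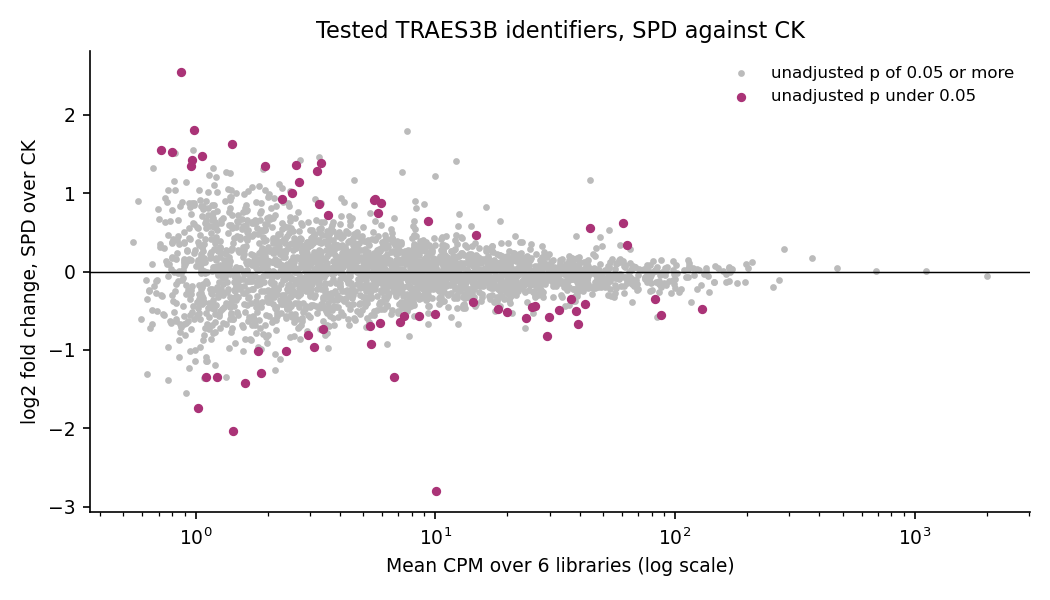
Log2 fold change of SPD over CK (vertical axis) against mean CPM over the 6 libraries (log scale, horizontal axis) for the 2660 tested TRAES3B identifiers, 1 point each. The 62 with an unadjusted edgeR p below 0.05 are in purple, and the fitted changes spread most widely at low levels. None passed an adjusted p of 0.05.

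The 2 identifiers with the lowest unadjusted p on the higher side had low levels. TRAES3BF038100020CFD_g had 1.52, 2.26 and 1.76 CPM in the CK libraries, against 4.49, 5.70 and 4.26 CPM in SPD, with 19 to 74 counts per library. TRAES3BF042000030CFD_g had 3.44, 4.70 and 3.44 CPM in the CK libraries, against 8.01, 6.01 and 7.95 CPM in SPD. In both, every SPD library lay above every CK library. Their log2 fold changes were 1.39 (SE 0.33) and 0.93 (SE 0.27), with an adjusted p of 0.998 each in edgeR.

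On the lower side, TRAES3BF094200050CFD_g had 12.2, 12.2 and 4.58 CPM in the CK libraries, against 4.17, 3.70 and 3.41 CPM in SPD. CK replicate 3 lay near the SPD libraries, although the groups did not overlap. TRAES3BF087300080CFD_g had 33.0, 41.0 and 32.8 CPM in the CK libraries, against 24.0, 26.6 and 20.6 CPM in SPD, again without overlap. Their log2 fold changes were -1.35 (SE 0.36) and -0.58 (SE 0.16), with an adjusted p of 0.998 each in edgeR. The sign of all 4 was kept in each of the 6 fits that dropped 1 library. These 4 were picked by low p, and in none did SPD and CK values overlap. Dropping a library could therefore hardly turn the sign, and the kept sign is no test of these differences. The log2 fold change of TRAES3BF094200050CFD_g ran from -1.68 to -1.14 in these fits.

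SPD replicate 3 held more identifiers far from the median of the libraries than any other library did. Of the 948 TRAES3B identifiers with a mean of at least 10 CPM, 371, or 39.1%, had their lowest value in SPD replicate 3, and 93 to 160 had it in each of the other libraries. On 3A and 3D the share lowest in SPD replicate 3 was 34.0%, and over all identifiers 35.8%. On CPM scaled by library size alone, SPD replicate 3 lay lower as a whole. Its values had a median ratio to the median of the 6 libraries of 0.944 on TRAES3B and 0.956 over all identifiers. In the other libraries that ratio was 0.994 to 1.03 on TRAES3B. The part of this shift in the counts of lowest values was not tested. In SPD replicate 3, 26 of the 948 lay at or under 0.5 times the median of the 6 libraries, where each other library had 0 to 5 of them. At 2 times the median or more lay 14 in SPD replicate 3 and at most 1 in each other library. The mean that admitted the 948 includes the high library, so an identifier could enter through that library alone. How many of the 14 did so was not counted. The shares in SPD replicate 3 were 2.74% and 1.48%, beside 2.33% and 1.13% of all identifiers at that level.

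The largest ratio of the highest library to the median was that of TRAES3BF078700040CFD_g, at 15.4. It had 2.48, 4.07 and 46.1 CPM in the CK libraries, against 3.51, 1.93 and 2.08 CPM in SPD. The high value, of 603 counts, was that of CK replicate 3, and the other libraries held 22 to 45 counts. Its fitted log2 fold change of SPD over CK was -2.81, and -0.37 without CK replicate 3. TRAES3BF266400060CFD_g had 5.44, 11.6 and 3.21 CPM in the CK libraries, against 8.99, 4.70 and 39.1 CPM in SPD, a ratio of 5.42. Its median was 7.22 CPM, and SPD replicate 3 likewise brought its mean over 10 CPM. TRAES3BF032400040CFD_g had 10.4, 19.2 and 5.96 CPM in the CK libraries, against 8.91, 7.47 and 45.5 CPM in SPD, a ratio of 4.72. In both of these SPD replicate 3 was the high library and CK replicate 2 came next.

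A further set was chosen after the values were seen. It holds identifiers with 0 counts in 1 library and at least 5 CPM in each of the other 5. There were 4 such TRAES3B identifiers, and all were missing from SPD replicate 3. TRAES3BF085800050CFD_g had 31.7, 22.8 and 22.9 CPM in the CK libraries, against 22.1 and 42.7 CPM in SPD replicates 1 and 2, which is 252 to 555 counts. TRAES3BF080600010CFD_g had 16.0, 23.6 and 23.0 CPM in the CK libraries, against 23.8 and 20.1 CPM in SPD replicates 1 and 2. TRAES3BF117100170CFD_g had 18.8, 18.5 and 19.9 CPM in the CK libraries, against 21.5 and 23.2 CPM in SPD replicates 1 and 2. TRAES3BF090400080CFD_g had 5.97 to 6.88 CPM in the same 5 libraries.

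In SPD replicate 3 a count of 0 allows up to 0.284 CPM, so the other libraries lay far above that limit in all 4. The other 5 libraries each had 0 such TRAES3B identifiers. The 4 were found among 8443 TRAES3B identifiers, beside 6 of 9055 on 3A and 3D and 41 of 102602 over all. Again all were missing from SPD replicate 3. Identifiers with at least 5 CPM in at least 5 libraries numbered 1319 on TRAES3B, 2297 on 3A and 3D and 25289 over all. The reverse, at least 5 CPM in 1 library and 0 counts in the rest, was met by 0 TRAES3B identifiers and 1 over all. None of the 4 was called. With all 6 libraries their edgeR log2 fold changes ran from -0.64 to -0.25, those of limma-voom from -2.47 to -2.04 and those with the replicate number as a block from -1.07 to -0.93. Without SPD replicate 3 the edgeR log2 fold changes of 3 of them were positive, from 0.066 to 0.33, and that of TRAES3BF090400080CFD_g was -0.075. SPD replicate 3 also held the highest summed endosperm and green tissue markers, at 18046 and 877 CPM, and their part in these values was not tested.

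**Figure D5:**
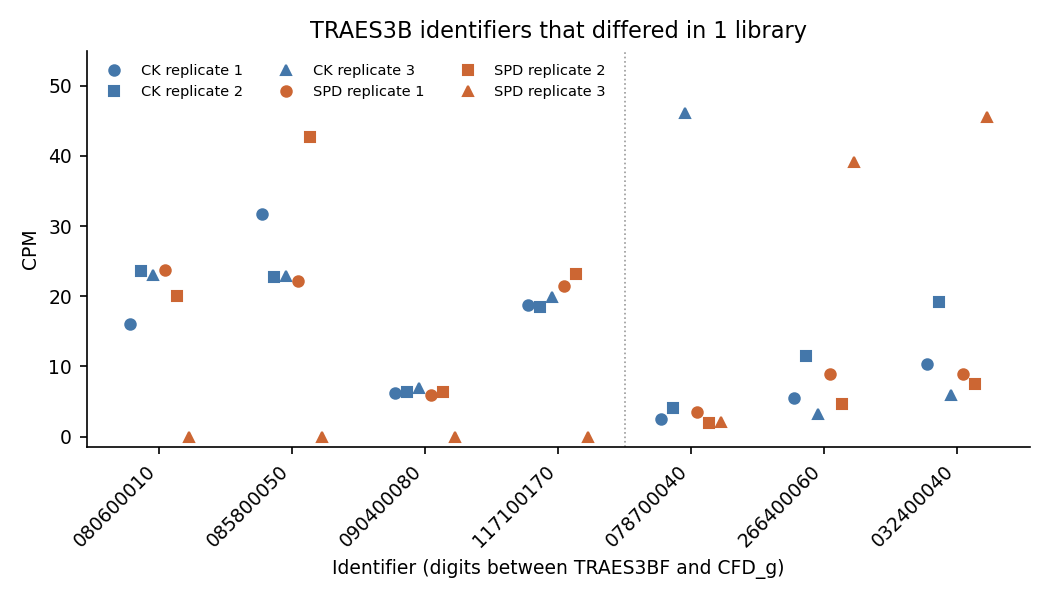
Levels (CPM, vertical axis) of TRAES3B identifiers that differed in 1 library (horizontal axis, by their digits), with 1 point per library, CK in blue and SPD in orange. Left of the dotted line, the 4 identifiers missing from SPD replicate 3 lie at 0 in that library and between 5.97 and 42.7 CPM in the others. To its right are the 3 identifiers with the largest ratio of the highest library to the median. They were ranked among those with a mean of at least 10 CPM, a mean that includes the high library. Their high value was in CK replicate 3 or SPD replicate 3.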

How the data were processed

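The authors deposited raw counts per gene identifier, whole numbers without normalisation, for 6 libraries. HISAT2, a spliced aligner, is named without a version in the submitters' processing notes. The counting program, build, annotation, strand setting and filters were not given in the sources used here. Reads shared by homoeologues or antisense partners therefore cannot be told apart, and levels of single identifiers are uncertain. Groups came from the sample titles. As nothing says that libraries came from separate plants, p-values here measure the spread among these libraries alone, and that spread may be technical.

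CPM of identifiers and shares were scaled by library size alone. SPD and CK were compared in edgeR 4.0.16 (R 4.3.3) over the whole table, with filterByExpr defaults (min.count 10, min.total.count 15), TMM scaling, the two-sided quasi-likelihood test and Benjamini-Hochberg adjustment. Overlap of groups over all tested identifiers was judged on TMM-scaled CPM. The principal components used log2 CPM with a prior count of 2. Single values were compared with exact permutation tests in scipy 1.17.1 (Python 3.11.15). The fit was also run on simulated counts in which no library stood apart as SPD replicate 3 did. The outcome of that run is not used as support for any result.

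Named identifiers were the 10 with the most counts, the 2 with the lowest p in each direction and the 3 with the largest ratio of 1 library to the median. The 4 missing from 1 library, and members counted or shown otherwise, were added after the values were seen. The members, lists and rules were chosen with earlier results of these data known. Alternatives were other scalings, filters and detection rules, DESeq2 1.42.0, limma-voom (limma 3.58.1), a replicate block and leaving out each library.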

Additional observations from a re-analysis of the deposited data

How the results depend on the processing

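TRAES3B identifiers called were 0 in all 14 other fits. Without a filter on low counts, 120 of 4446 tested TRAES3B identifiers lay below an unadjusted 0.05, or 2.70%, beside 3.91% of all tested. With 1 library left out the number ran from 45 to 188. It was 45 without CK replicate 2 (1.63%, beside 2.56% of all tested). The 188 came without SPD replicate 2 (6.81%, beside 7.76% of all tested). The median log2 fold change, from -0.030 to 0.0087, moved by less than the spread between libraries. The share detected was 24.6% when 1 CPM was asked in all 6 libraries, 35.1% in any 1, 34.3% at 0.5 CPM in at least 3 and 31.7% at 10 counts in at least 3. It was 29.1% to 29.2% with 1 library left out, where 3 of 5 were asked. The difference from 3A and 3D was -17.9 points with all 6 libraries asked and -25.2 with any 1. With 1 library left out it was -21.8 to -21.5, and 5 libraries cannot give an exact sign-flip permutation p below 0.0625. The median CPM of detected identifiers was 8.69 with all 6 asked, 5.01 at 0.5 CPM and 6.74 to 6.85 with 1 library left out. The SPD minus CK share of counts was negative under each of 9 alternatives, from -0.17 to -0.046 points.

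Log2 fold changes were compared between fits for only some named identifiers. These were TRAES3BF068600010CFD_g, TRAES3BF068600020CFD_g, the 2 with the lowest p in each direction, the 4 missing from SPD replicate 3 and TRAES3BF078700040CFD_g. Among these, 5 turned sign in at least 1 other fit. The remaining named identifiers were not compared. With 1 library left out, TRAES3BF068600010CFD_g ran from -0.16 to 0.047 and TRAES3BF068600020CFD_g from -0.19 to 0.11. For 3 of the 4 with 0 counts in SPD replicate 3 the sign turned only without that library, among the 14 other fits, and TRAES3BF080600010CFD_g ran from -1.02 to 0.066, TRAES3BF085800050CFD_g from -1.21 to 0.33 and TRAES3BF117100170CFD_g from -0.83 to 0.22. TRAES3BF068600020CFD_g was -0.0018 on library size alone, -0.019 in limma-voom and -0.012 with the replicate block. Same-numbered libraries did not deviate together (correlations of 0.016, -0.058 and -0.029 across tested identifiers). Among these pairs, only that numbered 1 was the best match of both its libraries. Correlations were higher for CK replicate 2 with SPD replicate 3 (0.044) and for CK replicate 3 with SPD replicate 2 (0.057). With the replicate number as a block, 0 TRAES3B identifiers were called, and 47 lay below an unadjusted 0.05 (1.77%, beside 2.88% of all tested). The median log2 fold change was then -0.027. The paired difference in share of counts was -0.11 points (exact sign-flip permutation p = 0.25, the smallest 3 pairs can give).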

Other observations

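Of the 26 TRAES3B identifiers at or under 0.5 times the median in SPD replicate 3, 6 shared their leading digits with another of the 26.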
